A study of Mus musculus with 10 samples.

Results

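The genes described here are the integrin and laminin genes of mouse lung tumours labelled as controls or as deleted for Glut1. They were taken by symbol, as every annotated row named Itga or Itgb, or Lama, Lamb or Lamc, followed by digits alone, with Itgb2 left out. The rule uses no measured value, and it found 29 of the 39017 genes of the count table. Of these, 18 encode integrin subunits (11 α and 7 β) and 11 encode laminin chains (5 α, 3 β and 3 γ).

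Laminins are trimers of an α, a β and a γ chain, and they polymerise into the sheet of the basement membrane on which epithelial and endothelial cells rest. Integrins are αβ pairs that span the plasma membrane and bind laminins, collagens or proteins with an RGD motif, and their tails attach to the actin or the keratin cytoskeleton. In lung epithelium laminin with the Lama3 and Lamb3 chains anchors hemidesmosomes through the Itga6-Itgb4 receptor, and Itga3-Itgb1 binds the same chains.

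KP mice (K-rasLSL-G12D/WT; p53Fl/Fl, on a C57BL6/J background) served as controls, and KPG1 mice carried in addition Glut1Fl/Fl, the floxed gene Slc2a1 of a glucose transporter. In all animals Cre came from an intratracheal adenovirus, Ad5CC10-Cre, whose CC10 promoter limits it to CC10-positive airway cells, and K-ras activation and p53 deletion were therefore shared by both groups. Tumours were macrodissected 20 weeks and 1 day after initiation, dissociated and depleted of CD45-positive cells, and polyadenylated RNA of the remainder was sequenced. There were 5 control and 5 Glut1-KO libraries. The genotype label of the controls reads heterozygous fl/wt, whereas the design text names wild type, and that of the others reads homozygous fl/fl. All 5 controls were labelled male, Glut1-KO replicates 1 to 3 female and replicates 4 and 5 male. The file names carry a further number that may be the mouse, which no label states: controls 1, 2 and 5 share a number, as do controls 3 and 4 and Glut1-KO replicates 4 and 5. The p-values therefore measure the spread between libraries, which need not be separate animals.

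Library totals ran from 35.3 to 49.8 M counts, and all levels are in CPM (counts per M after TMM scaling). The deleted gene did not separate the groups. Slc2a1 stood at 118, 86.7, 92.6, 103 and 73.2 CPM in controls 1 to 5 and at 60.3, 42.5, 34.6, 92.4 and 103 CPM in Glut1-KO replicates 1 to 5, of which the last pair is male (log2 fold change -0.62, SE 0.29, limma adjusted p = 0.658, exact permutation p = 0.0952, 5 against 5). The 3 female libraries lay below all controls and the 2 male ones within their range, so "labelled Glut1-KO" and "Glut1-KO group" refer to the label alone. With sex as a covariate or in male libraries, the log2 fold change of Slc2a1 turned to 0.06. All controls were male, so here and below these 2 settings are 1 contrast, of the controls with Glut1-KO replicates 4 and 5. These replicates share a number in their file names. Sex and the level of Slc2a1 cannot be told apart in these libraries. Epithelial markers such as Epcam summed to 3940 to 5394 CPM in controls and 3085 to 7462 CPM in the other group, so epithelial RNA was present in every library. Markers of other cells remained as well. Endothelial markers had a higher mean in the libraries labelled Glut1-KO for 12 of 12 genes (sums of 125 to 472 CPM in controls and 215 to 620 CPM), and leukocyte markers for 10 of 11 found (307 to 462 against 336 to 584 CPM). Most of the leukocyte sum came from Lcp1, named here after its values were seen, with means of 325 and 407 CPM. Markers of airway cells had lower means in that group, for 6 of 6 club cell genes (median log2 fold change -0.86), 8 of 8 of ciliated cells (-0.71) and 4 of 4 of basal cells (-1.14 over the 2 tested), with 0 at an unadjusted p under 0.05 and sums that overlapped between the groups. In bulk RNA, fewer cells of a type and less RNA per cell cannot be told apart.

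Levels between genes were compared per kb of exon. Itgb1, the β subunit shared by most integrins, was the most abundant member, with 204 ± 51.5 CPM per kb in controls and 175 ± 36.9 CPM per kb in the Glut1-KO group (SD, n = 5 each). Lamb3 had a mean over all 10 libraries of 120 CPM per kb. Lama3, the α chain that assembles with Lamb3, had a mean of 13.6 CPM per kb. Lama5, the main α chain of adult basement membranes, stood at 57.1 CPM per kb, ahead of Itga3 (54.8), Itga6 (48.6) and Itga2 (35.7). Lamb2 (30.6), Lamc1 (27.9), Itga9 (27.4), Itga7 (26.6) and Itgb4 (15.95 CPM per kb) formed a middle tier together with Lama3, Lamb1 (13.5) and Itgb5 (11.4). Itgb6 (7.68), Itga5 (5.85), Itgb3 (2.04), Itga1 (1.91) and Lama4 (1.79) were lower, and the remaining 9 members were all under 1 CPM per kb, down to 0.069 for Itgb8. Of the 28 steps between neighbours in this order, 1 held in all 10 libraries, Itga5 over Itgb3. Lamb2 exceeded Lamc1 in 6 libraries and Lamc1 exceeded Itga9 in 5, so such neighbours did not differ beyond their spread.

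**Figure D1:**
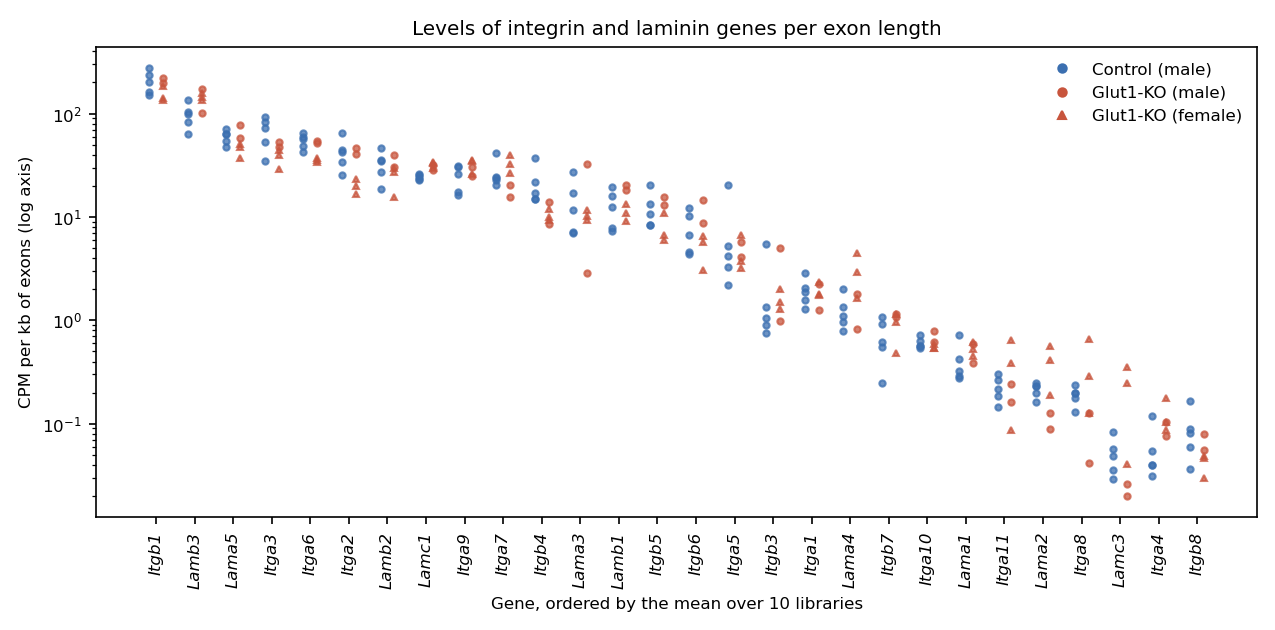
CPM per kb of exon on a log axis for 28 of the genes in each of the 10 libraries (circles male, triangles female; blue controls, red labelled Glut1-KO). Itgb1 and Lamb3 lie high, and the points of both groups overlap for all genes shown but Lamc1 and Itgb4.

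All 29 genes passed the filter on low counts and were tested among 15922 genes. At a limma adjusted p under 0.05, 0 were higher and 0 lower in the Glut1-KO group, as was the case for all genes tested (0% in either direction). At an unadjusted p under 0.05, 3 members were higher (Lamc1, Itga4 and Lamb3) and 2 lower (Itgb4 and Itga3), against 3.66% of all genes higher and 4.02% lower. The groups did not overlap for 1 member that was higher, Lamc1, and 1 that was lower, Itgb4, beside 0.798% and 1.06% of all genes. The edgeR quasi-likelihood test called 0 members, with 4 higher and 2 lower at an unadjusted p under 0.05, beside 4.08% and 4.77% of all genes. DESeq2 called Lamc1 higher (adjusted p = 0.00241) and Itgb4 lower (adjusted p = 0.0381), and it called 0.691% of all genes higher and 0.659% lower. The median log2 fold change of the 29 members was -0.01, beside -0.0049 over all genes, with 14 members above 0 and 15 below.

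**Figure D2:**
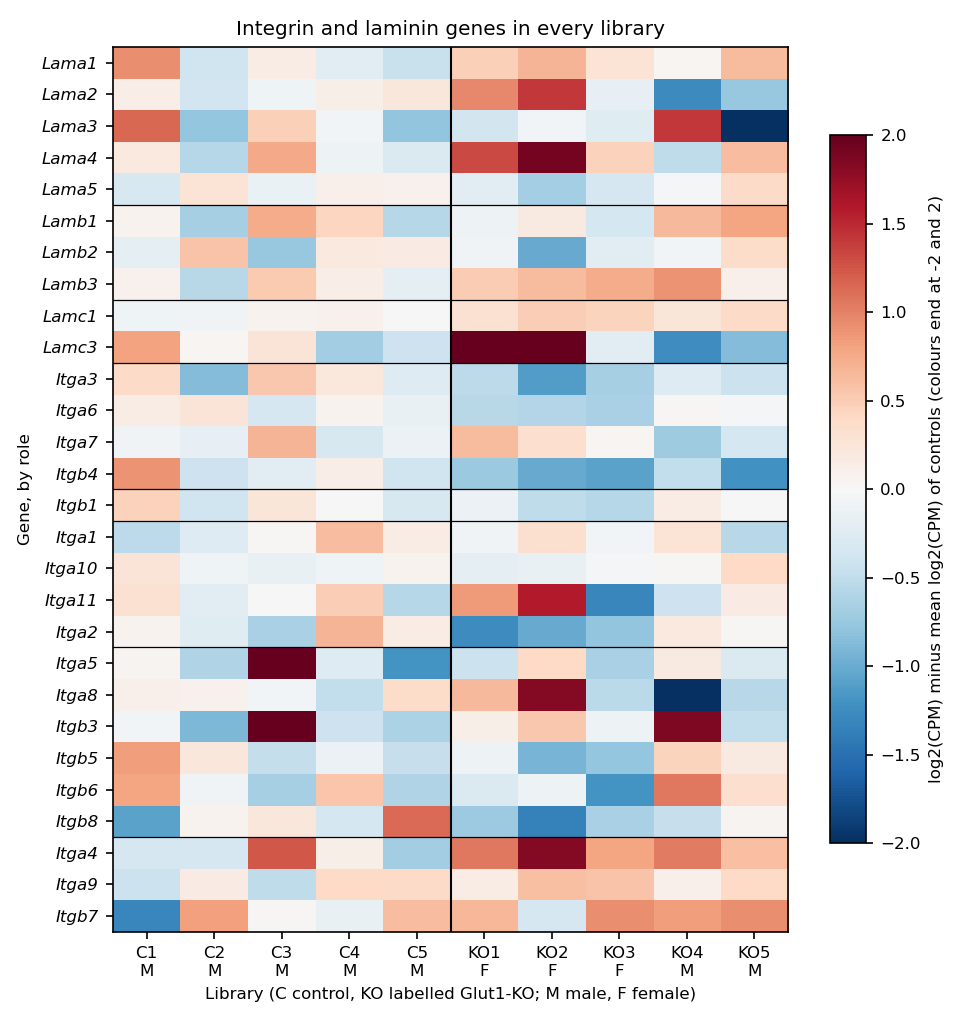
Colour gives log2 CPM minus the mean log2 CPM of the 5 controls for 28 genes (rows, grouped by role) in 10 libraries (columns, C control, KO labelled Glut1-KO, with sex below). Lamc1 is above that mean in all 5 libraries at the right and Itgb4 below it in all 5, while Lama2, Itga8 and Lamc3 are high in Glut1-KO replicates 1 and 2 and low in replicates 4 and 5.

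Lamc1, the γ chain of most laminin trimers, was higher in every library labelled Glut1-KO than in any control. Its levels were 190, 191, 211, 214 and 200 CPM in controls 1 to 5 and 249, 284, 273, 237 and 263 CPM in Glut1-KO replicates 1 to 5. The change was small, but so was the spread, at 201 ± 11.2 against 261 ± 18.5 CPM (SD, n = 5 each; log2 fold change 0.37, SE 0.09, limma adjusted p = 0.363). The exact permutation p was 0.00794, the smallest that 5 libraries against 5 allow. Against the controls, the female libraries gave a log2 fold change of 0.42 (SE 0.10) and the male libraries 0.31 (SE 0.12). Without overlap of the groups, neither sign could turn. Leaving out any library in turn gave 0.34 to 0.41. The gene spans bases 153218922 to 153332786 of chromosome 1 (GRCm38, minus strand). Lamc3, found in few tissues, was near the limit of detection, at 0.309 ± 0.128 CPM in controls. It reached 2.17 and 1.498 CPM in Glut1-KO replicates 1 and 2 and was at 0.12 to 0.25 CPM in replicates 3 to 5.

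Lamb3 was the β chain with the smallest p, and its mean was higher in the libraries labelled Glut1-KO. Its levels were 661, 422, 894, 681 and 549 CPM in controls and 885, 964, 1043, 1154 and 666 CPM in the other libraries. Of the latter, 3 were above all controls, whereas replicates 1 and 5 lay inside their range (log2 fold change 0.57, SE 0.21, limma adjusted p = 0.562, exact permutation p = 0.0476). Lamb1, the β chain of many embryonic and vascular trimers, averaged 125 ± 51.6 and 143 ± 46.9 CPM, and Lamb2, its counterpart in mature basement membranes, 198 ± 63.1 and 174 ± 53.6 CPM (SD, n = 5 each). For these 2 genes the groups overlapped widely.

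Among the α chains, Lama3 varied most between libraries. It ranged from 75.5 to 289 CPM in controls and from 30.8 to 348 CPM in the Glut1-KO group, an 11.3-fold range that was set by the male replicates 5 and 4. Lama4, a chain of vascular basement membranes, was at 16.3, 9.60, 24.1, 13.2 and 11.7 CPM in controls and at 35.6, 53.6, 19.6, 9.999 and 21.9 CPM in the other group. Only Glut1-KO replicates 1 and 2 exceeded all controls (log2 fold change 0.82, SE 0.42, limma adjusted p = 0.688, exact permutation p = 0.151), and the summed endothelial markers were also highest in these libraries, at 486 and 620 CPM. For Lama4 the log2 fold change was 0.13 with sex as a covariate and 0.53 without Glut1-KO replicate 2. The part of endothelial RNA in the levels of Lama4 and Lamc1 was not tested. Lama1, typical of embryonic basement membranes, averaged 3.94 ± 1.80 and 4.99 ± 0.89 CPM (log2 fold change 0.44, SE 0.28, limma adjusted p = 0.745, or 0.67 without control 1). Lama2, the α chain around muscle, averaged 3.52 ± 0.56 and 4.53 ± 3.36 CPM, and Lama5 682 ± 105 and 618 ± 172 CPM (SD, n = 5 each).

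**Figure D3:**
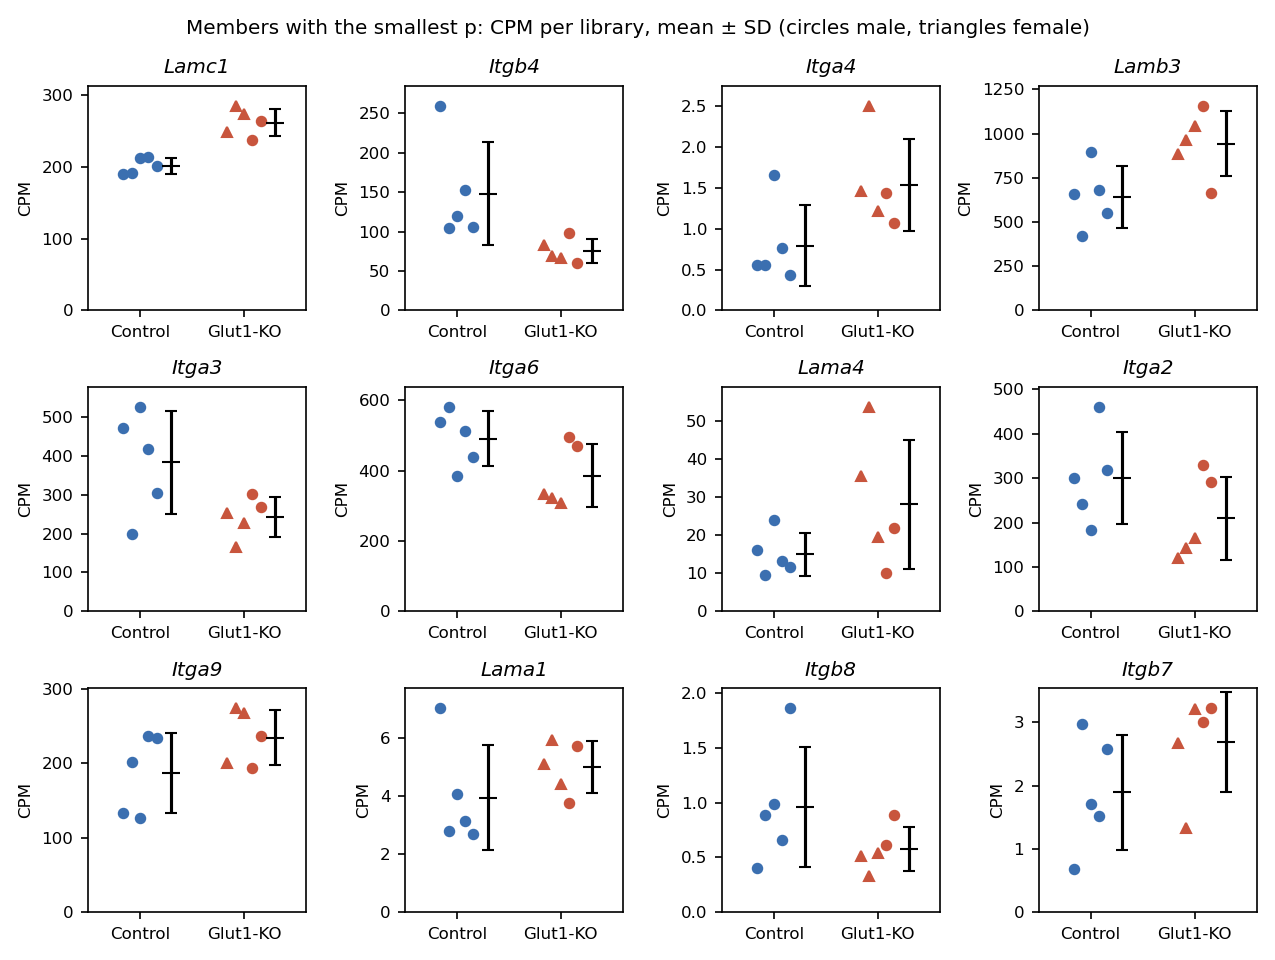
CPM of the 12 members with the smallest limma p in each library (circles male, triangles female), with the mean and SD of 5 libraries beside each group. The groups are apart for Lamc1 and Itgb4 and overlap for the other 10, and for Itga6 and Itga2 the 3 female libraries lie below all controls while the male ones do not.

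Among the 4 subunits of laminin-binding integrins, the log2 fold change was -0.91 for Itgb4, -0.61 for Itga3, -0.36 for Itga6 and -0.01 (SE 0.27) for Itga7. Itgb4, whose long cytoplasmic tail links hemidesmosomes to keratin filaments, was lower in every library labelled Glut1-KO than in any control. Its levels were 259, 104, 120, 153 and 106 CPM in controls and 83.6, 69.4, 65.9, 98.7 and 60.1 CPM in Glut1-KO replicates 1 to 5, or 148 ± 64.9 against 75.5 ± 15.6 CPM (SD, n = 5 each). The log2 fold change was -0.91 (SE 0.25, limma adjusted p = 0.419, with an exact permutation p of 0.00794). Control 1 was the highest of the 10 libraries and also held the markers of basal cells, with a sum of 530 CPM against 4.22 to 21.4 CPM elsewhere. The part of airway cells, basal, club or ciliated, in the levels of Itgb4, Itga3 and Itga6 was not tested. Without control 1 the log2 fold change was -0.68 (SE 0.17, limma adjusted p = 0.433). Over the 10 omissions of 1 library it ranged from -1.01 to -0.68. The female Glut1-KO libraries against the male controls gave -0.93 (SE 0.29), and the male ones against the same controls -0.86 (SE 0.39). Without overlap of the groups, neither sign could turn. Itgb4 spans bases 115974709 to 116008412 of chromosome 11 (GRCm38, plus strand), and its exons overlap those of B230344G16Rik on the other strand, which had 5 to 27 counts against at least 2652 for Itgb4.

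Itga3, the α subunit that pairs with Itgb1 to bind the Lama3 and Lama5 trimers, was at 470, 198, 524, 418 and 303 CPM in controls and at 252.04, 166, 228, 303 and 268 CPM in Glut1-KO replicates 1 to 5. The 3 highest libraries were controls, but control 2 was lower than 4 of the 5 others (log2 fold change -0.61, SE 0.26, limma adjusted p = 0.631, exact permutation p = 0.0794), and with sex as a covariate or in male libraries the log2 fold change of Itga3 was -0.35. Itga6, the partner of Itgb4, was at 539, 580, 385, 512 and 440 CPM in controls. In the Glut1-KO group it was at 332.4, 323 and 309 CPM in females and at 495 and 471 CPM in males (log2 fold change -0.36, SE 0.17, limma adjusted p = 0.677, exact permutation p = 0.0794). The female Glut1-KO libraries against the male controls gave -0.59 (SE 0.15, limma adjusted p = 0.207). The male ones against the same controls gave -0.01 (SE 0.18, limma adjusted p = 0.992), a difference that was not tested. Itga7, best known from muscle, averaged 214 ± 67.4 and 217 ± 77.9 CPM, with 333 CPM in control 3, and its log2 fold change was -0.53 with sex as a covariate. Itgb1 averaged 833 ± 210 and 715 ± 151 CPM (SD, n = 5 each), with control 1 highest at 1117 CPM.

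**Figure D4:**
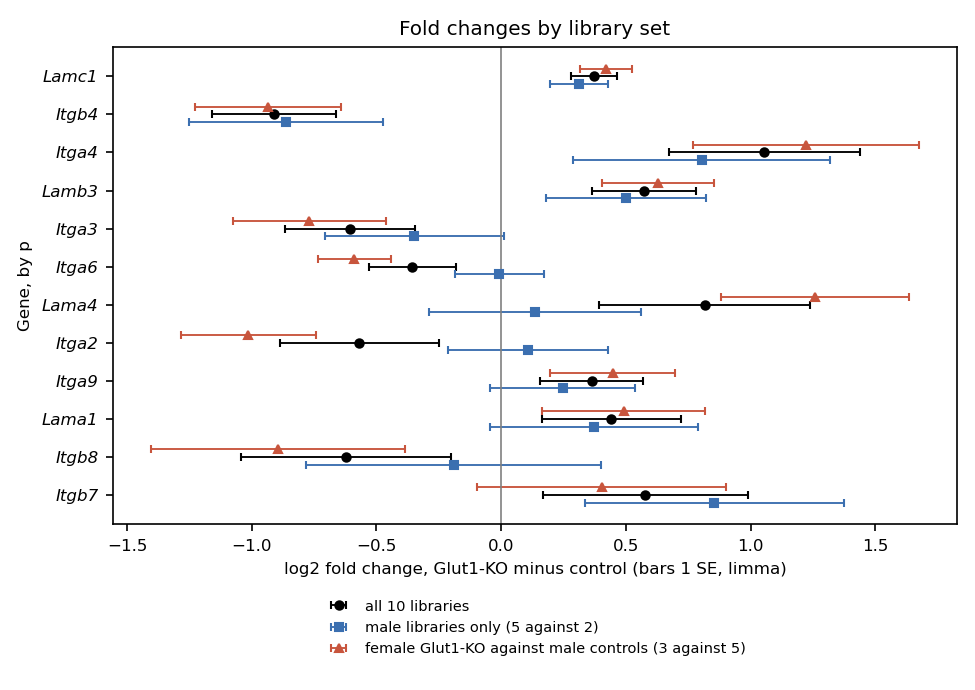
Log2 fold change of the 12 members with the smallest p, labelled Glut1-KO minus control, with bars of 1 SE from limma, for all 10 libraries, the male libraries and the female Glut1-KO libraries against the male controls. The female and the male set, which share the controls, gave 0.42 and 0.31 for Lamc1 and -0.93 and -0.86 for Itgb4. The groups do not overlap for these genes, so their signs could not turn. The values of Itga6 (-0.59 and -0.01), Lama4 (1.26 and 0.14) and Itga2 (-1.01 and 0.11) lie further apart.

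Among the collagen-binding α subunits, Itga2 followed the pattern of Itga6. It was at 301, 242, 182, 459 and 318 CPM in controls, at 120, 143 and 166 CPM in females of the Glut1-KO group and at 328 and 290 CPM in its males. The log2 fold change was -0.57 (SE 0.32, limma adjusted p = 0.718, exact permutation p = 0.151), and its sign turned to 0.11 when sex was a covariate or when male libraries alone were used. With library quality weights the log2 fold change of Itga2 was -0.89. Itga1, common on stromal cells, averaged 36.0 ± 11.03 and 35.1 ± 8.02 CPM, and Itga10, known from cartilage, 3.14 ± 0.36 and 3.19 ± 0.55 CPM. Itga11, known from fibroblasts, averaged 1.14 ± 0.32 and 1.57 ± 1.14 CPM (SD, n = 5 each), with its highest levels, 2.00 and 3.33 CPM, in Glut1-KO replicates 1 and 2. Fibroblast markers summed to 148 and 198 CPM in these 2 libraries, within the 84.4 to 354 CPM of controls. The part of fibroblasts in Itga11 was not tested.

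Of the subunits that bind RGD proteins, Itga5 and Itgb3 had single libraries far above the others. Itga5, the α subunit of the fibronectin receptor, was at 99.6 CPM in control 3 and at 10.8 to 25.6 CPM in the other controls, and averaged 34.6 ± 36.7 and 23.1 ± 7.08 CPM. Itgb3, the β subunit of the vitronectin receptor, was at 32.5 CPM in control 3 and 29.8 CPM in Glut1-KO replicate 4, against 4.42 to 11.96 CPM in the other 8 libraries. Group means were 11.3 ± 11.96 and 12.8 ± 9.73 CPM. Itgb5, another vitronectin receptor subunit, averaged 43.6 ± 18.1 and 37.2 ± 14.5 CPM, and Itgb6, an epithelial subunit that activates latent TGFβ, 54.3 ± 24.7 and 55.0 ± 30.7 CPM. Itgb8, which also activates latent TGFβ, was low, at 0.405, 0.891, 0.988, 0.661 and 1.86 CPM in controls and 0.511, 0.333, 0.539, 0.613 and 0.883 CPM in the other group. These levels overlapped (log2 fold change -0.62, SE 0.42, limma adjusted p = 0.756, exact permutation p = 0.19), and without control 5 the log2 fold change was -0.35. Itga8, known from mesenchymal cells, averaged 1.39 ± 0.29 and 1.84 ± 1.82 CPM (SD, n = 5 each). It was at 4.87 CPM in Glut1-KO replicate 2 and 0.307 CPM in replicate 4, which span all other libraries.

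The 3 members known from leukocytes or lymphatic vessels, Itga4, Itga9 and Itgb7, had log2 fold changes above 0. Itga4, the α subunit of the leukocyte receptors for Vcam1, was at 0.557, 0.557, 1.65, 0.763 and 0.434 CPM in controls and at 1.46, 2.50, 1.21, 1.44 and 1.06 CPM in Glut1-KO replicates 1 to 5. Control 3 exceeded 4 of the 5 others, and the remaining controls lay below all of them (log2 fold change 1.06, SE 0.38, limma adjusted p = 0.561, exact permutation p = 0.0397). Without control 3 it was 1.36 (SE 0.34, adjusted p = 0.527) and the groups did not overlap. The counts behind these levels were 18 to 105 reads. Itgb7, which pairs with Itga4 on lymphocytes, was at 0.683, 2.97, 1.70, 1.53 and 2.58 CPM in controls and 2.68, 1.33, 3.21, 3.01 and 3.22 CPM in the other group (log2 fold change 0.58, SE 0.41, limma adjusted p = 0.768, exact permutation p = 0.246). Without control 1, its lowest library, the log2 fold change of Itgb7 was 0.26. Of the 10 leukocyte markers tested, 6 were higher at an unadjusted p under 0.05, beside 3.66% of all genes. The groups did not overlap for 5, beside 0.798% of all genes that were higher without overlap. Among these was Ptprc, which encodes the depleted CD45, at 2.76 ± 0.451 against 7.92 ± 2.19 CPM (SD, n = 5 each). The part of leukocytes left after the depletion in Itga4 and Itgb7 was not tested. Itga9, a receptor of tenascin C and other ligands, was far more abundant, at 187 ± 53.5 and 234 ± 37.0 CPM (log2 fold change 0.36, SE 0.21, limma adjusted p = 0.718). Without control 3 the log2 fold change of Itga9 was 0.24.

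For the members at an unadjusted p under 0.05, the RefSeq promoter table (GRCm38.p6) was searched, since it shows the sequence from which these transcripts start. It held windows of 300 bases for 19 of the 29 members, 22 windows in all, and Lamc1 and Itgb4 were not among them. The bases upstream of a start are printed for the other 3 genes, 5′ to 3′ on the strand of the gene, with GC boxes (GGGCGG, searched on both strands) in capitals. The printed stretches end before the first annotated exon within the window, so that of Itga3 leaves out the bases nearest its RefSeq start, and that of Lamb3 precedes a transcript start inside the annotated gene. They have 250, 249 and 163 bases and are chr2:79255176-79255425 on the plus strand, chr1:193301744-193301992 on the plus strand and chr11:95076802-95076964 on the minus strand.
Itga4: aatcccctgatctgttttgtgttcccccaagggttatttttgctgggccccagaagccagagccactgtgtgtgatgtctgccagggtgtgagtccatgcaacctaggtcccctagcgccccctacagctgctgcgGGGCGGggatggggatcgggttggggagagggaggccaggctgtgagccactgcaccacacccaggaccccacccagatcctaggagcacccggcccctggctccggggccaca
Lamb3: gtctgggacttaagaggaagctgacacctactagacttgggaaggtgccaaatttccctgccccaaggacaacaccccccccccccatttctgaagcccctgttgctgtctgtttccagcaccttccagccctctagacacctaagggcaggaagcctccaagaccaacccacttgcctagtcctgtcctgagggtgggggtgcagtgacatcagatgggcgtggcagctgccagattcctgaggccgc
Itga3: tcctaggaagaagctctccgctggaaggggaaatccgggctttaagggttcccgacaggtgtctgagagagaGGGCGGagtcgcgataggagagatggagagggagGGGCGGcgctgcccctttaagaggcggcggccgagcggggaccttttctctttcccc
The Itga3 stretch holds 2 GC boxes, that of Itga4 1, and that of Lamb3 0. GC boxes were found in 45.5% of the member windows and 35.7% of all 32851 windows of the table, AP-1 elements (TGACTCA) in 4.5% and 5.2%, and TEAD elements (GGAATG) in 13.6% and 14.7%. These matches describe the letters alone.

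Chains that assemble into the same protein were compared across the 10 libraries. Of 8 pairs, Itga3-Itgb1 was correlated, with Pearson r = 0.85 (permutation p = 0.00273, adjusted p = 0.0218) and Spearman rho = 0.85 (permutation p = 0.00300, adjusted p = 0.0240). Without control 3 and Glut1-KO replicate 2, the libraries farthest from the median of Itga3, r was 0.80. For Itga6-Itgb4, r was 0.58 (permutation p = 0.0759, adjusted p = 0.286), and it fell to 0.27 with deviations from the group means (rho 0.10, permutation p of r adjusted to 0.619). For Lama3-Lamb3, r was 0.48 (permutation p = 0.162, adjusted p = 0.318). Without the 2 libraries farthest from the median of the first gene, r was 0.38 for Itga6-Itgb4 and 0.33 for Lama3-Lamb3. Further values of r, with that without the 2 farthest libraries, were -0.39 and -0.50 (Lama5-Lamc1), 0.21 and 0.46 (Lama4-Lamb1) and 0.28 and -0.23 (Lamb1-Lamc1), so the sign of the last turned. With deviations from the group means in place of the levels, Lama3-Lamb3 reached r = 0.78 (permutation p adjusted to 0.0309), and Itga3-Itgb1 0.86 (permutation p adjusted to 0.00584). Libraries that share a name number may not be independent.

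**Figure D5:**
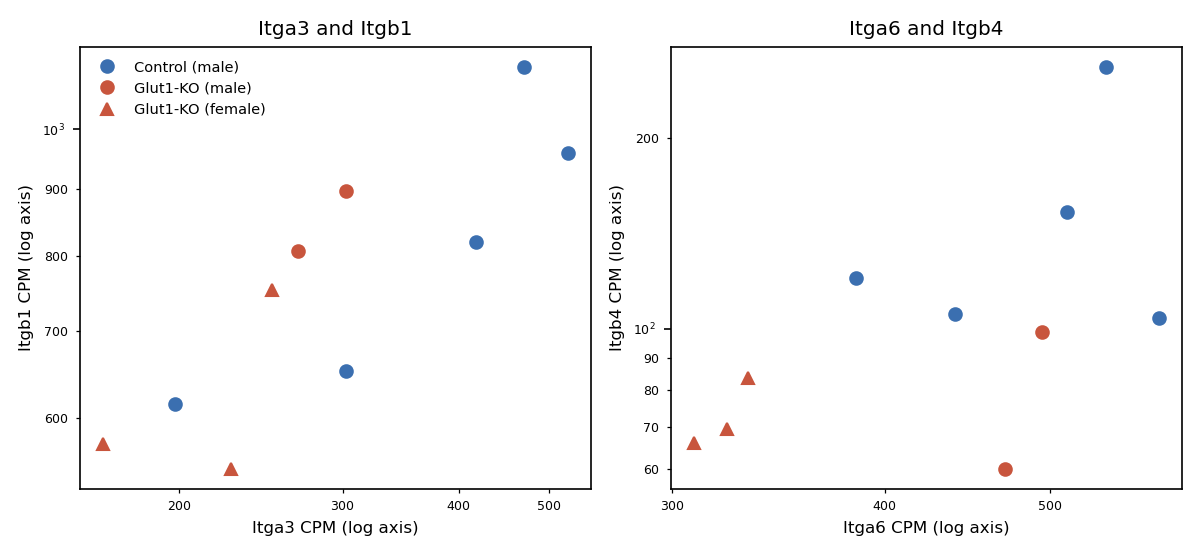
CPM of Itgb1 against Itga3 (left) and of Itgb4 against Itga6 (right) in 10 libraries, on log axes, with blue controls, red libraries labelled Glut1-KO, circles male and triangles female. Itgb1 follows Itga3 (r = 0.85), and Itgb4 is lower in every red library than in any blue one, while 3 red libraries lie below all blue ones in Itga6.

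Genes that act with the members were taken from lists by function, and 0 of them passed an adjusted p under 0.05 with limma. The counts in these lists stand beside 3.66% of all genes higher and 4.02% lower at an unadjusted p under 0.05. The groups did not overlap for 0.798% of all genes that were higher and 1.06% that were lower. Of 7 integrin genes outside the rule that were tested, 2 were higher at an unadjusted p under 0.05. These were the leukocyte integrins Itgb2 (1.59 ± 0.524 against 3.74 ± 1.07 CPM, log2 fold change 1.26, limma adjusted p = 0.363, no overlap) and Itgax (3.07 ± 0.491 against 6.88 ± 3.28 CPM, 1.05, limma adjusted p = 0.484, or 0.49 with sex as a covariate and in male libraries). Most leukocyte markers also had higher means in the Glut1-KO group, and the part of leukocytes in Itgb2 and Itgax was not tested. Of 14 other basement membrane genes, 2 were higher and 2 lower at that p. The type IV collagen chains Col4a1, at 1007 ± 41.2 against 1457 ± 214 CPM (log2 fold change 0.52, SE 0.12, limma adjusted p = 0.351), and Col4a2, at 527 ± 36.1 against 712 ± 95.4 CPM (0.42, SE 0.12, limma adjusted p = 0.419), did not overlap between the groups, as for Lamc1. The endothelial markers were also higher in mean in the Glut1-KO group, and their part in the levels of Col4a1 and Col4a2 was not tested. The lower ones, chosen after their values were seen, were Ntn4, a laminin-related netrin (-1.13, SE 0.42, limma adjusted p = 0.574), and Agrn, which binds laminin (-0.46, SE 0.18, limma adjusted p = 0.591, but -0.18 with sex as a covariate or in male libraries).

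Of 20 genes of focal adhesions and integrin activation, 2 were higher and 1 lower at an unadjusted p under 0.05: Tns1, a tensin that links integrin tails to actin (log2 fold change 0.33, SE 0.14), Itgb1bp1, which binds the tail of Itgb1 and was chosen after its values were seen (0.42, SE 0.19), and Lims1, an adaptor of the integrin-linked kinase (-0.47, SE 0.19). The log2 fold change of Itgb1bp1 was 0.27 with sex as a covariate or in male libraries. Of 6 genes of hemidesmosomes and tetraspanins 0 reached an unadjusted p under 0.05. Cd151, the tetraspanin of laminin-binding integrins, gave -0.30 (SE 0.19), or -0.19 without Glut1-KO replicate 2 and -0.04 with sex as a covariate, and Dst, which encodes a hemidesmosomal plakin, -0.37 (SE 0.30), or -0.17 without control 1, -0.59 without control 2, -0.23 without Glut1-KO replicate 1 and -0.09 with sex as a covariate. The 7 other laminin receptors tested gave 0 as well, with 0.39 (SE 0.22) for Bcam, a receptor of Lama5 trimers (0.25 without control 2, 0.26 without Glut1-KO replicate 4 and 0.59 with sex as a covariate), and 0.19 (SE 0.18) for the syndecan Sdc1, which gave 0.01 without Glut1-KO replicate 4, 0.28 without replicate 2 and 0.53 with sex as a covariate.

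Among 16 integrin ligands other than laminins, 3 were lower at an unadjusted p under 0.05 and 0 higher. Of all genes, 4.02% were lower and 3.66% higher at that p. Cyr61, a matricellular ligand of several integrins, was at 208, 274, 136, 204 and 212 CPM in controls and at 110, 91.0, 102, 95.7 and 101 CPM in the Glut1-KO group, without overlap (log2 fold change -1.01, SE 0.16, limma adjusted p = 0.23, exact permutation p = 0.00794). Without control 3 its log2 fold change was -1.16 and passed the adjustment (limma adjusted p = 0.0406). In the other omissions of a library the limma adjusted p of Cyr61 was 0.2025 to 0.5569. Its relative Ctgf averaged 108 ± 38.3 and 43.2 ± 17.9 CPM (-1.35, SE 0.33, limma adjusted p = 0.363). For Ctgf the log2 fold change was -0.71 with sex as a covariate and in male libraries, and -1.76 with the female Glut1-KO libraries against the male controls. Tnc, which encodes tenascin C and was chosen after its values were seen, was at 56.7, 61.7, 575, 77.5 and 33.0 CPM in controls and 10.3, 20.3, 12.8, 28.2 and 32.6 CPM in the other group (-2.22, SE 0.74, limma adjusted p = 0.513). Control 3 stood out for Tnc as it did for Itga5 and Itgb3, and without it the log2 fold change of Tnc was -1.54. DESeq2 called 6 of these partner genes at an adjusted p under 0.05, namely Itgb2, Itgax, Col4a1, Col4a2, Cyr61 and Ctgf. It called 0.691% of all genes higher and 0.659% lower.

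Exons of 7 members overlap exons of another gene on the opposite strand, and those of Itga1 and Itga10 overlap another gene on the same strand, so reads in these stretches could not be assigned here. For Itga4 the partner is Cerkl, which had 3 to 37 counts against 18 to 105 for Itga4, and the level of Itga4 is uncertain for that reason.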

How the data were processed

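Polyadenylated RNA of CD45-depleted tumour cells was sequenced in 10 libraries, 5 per group. The authors prepared stranded libraries (TruSeq), trimmed single-end reads with Cutadapt and aligned them with HISAT2 to mm10. The submitters' processing notes also list bcl2fastq 2.17, cutadapt 1.4.2, featureCounts 1.4.4 and edgeR. The paper's methods name a different version of Cutadapt. The strand setting and annotation release are not given in the sources used here. The deposited values are raw counts per Ensembl gene. A deposited table of log2 values was not used here.

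Counts were filtered with filterByExpr (minimum count 10, minimum total 15), scaled by TMM (edgeR 4.0.16), transformed with voom and fitted with limma 3.58.1 in R 4.3.3, as the study's methods name, with group as the only term. P-values were adjusted by Benjamini-Hochberg over 15922 genes, with a threshold of 0.05. Single genes were also compared by a 2-sided exact permutation test of mean log2 CPM over all assignments of 5 and 5, and pairs of genes by 100000 permutations. The study's methods instead left out genes with an average TPM under 20, which was run as an alternative beside edgeR, DESeq2 1.42.0, library totals, no filter, quality weights, sex, blocks and omitted libraries. The code was tested on simulated data. Exon lengths and positions came from GENCODE M21, with 96.6% of identifiers matched. Statistics are given for the 12 members with the smallest p and for the 2 such genes of each partner list, and also for Itga7, Ntn4, Agrn, Itgb1bp1 and Tnc, which were chosen after their values were seen. The values of 1 member are not reported here, although it enters the counts over 29 members, the order of levels and the adjustment over 8 pairs. The members and lists were chosen with earlier results of these data known. Totals of 35.3 to 49.8 M counts limit precision for the members under about 100 reads.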

Additional observations from a re-analysis of the deposited data

Results flagged for a closer look

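In each group of 5 libraries, a value was singled out when its gap to the nearest library exceeded 0.71 of the group's range (Dixon's limit). Of 114 groups of values checked, 11 did so, where chance would give about 5.7.

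Control 3 stood apart for 5 genes. It had 333 CPM of Itga7 (165 to 197 in the other controls), 99.6 CPM of Itga5 (10.8 to 25.6), 32.5 CPM of Itgb3 (4.42 to 7.90), 1.65 CPM of Itga4 (0.434 to 0.763) and 575 CPM of Tnc (33.0 to 77.5). Glut1-KO replicate 4 had 29.8 CPM of Itgb3 (5.84 to 11.96 in the other libraries of its group). Glut1-KO replicate 2 had 2.50 CPM of Itga4 (1.06 to 1.46) and the lowest Itgb7 of its group, 1.33 CPM (2.68 to 3.22). Glut1-KO replicate 5 had 169 CPM of Lims1 (117 to 130).

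Among the marker sums, that of basal cells was 530 CPM in control 1 (5.11 to 21.1 CPM in the other controls), and that of leukocytes 462 CPM in control 4 (307 to 350 CPM). Lcp1 carried most of the leukocyte sum, with a mean of 325 CPM in controls.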

How the results depend on the processing

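Of 695 values computed under alternatives for 41 results, 670 kept their direction and side of the threshold or stayed close to the reported value. DESeq2 called 2 members, Lamc1 and Itgb4 (0 with limma), beside 0.691% of all genes higher and 0.659% lower. It also passed Itgb2, Itgax, Cyr61, Ctgf, Col4a1 and Col4a2. With limma, Cyr61 passed without control 3 but in no other omission of a library. The cause was not tested. The count of members at an unadjusted p under 0.05, 5 as reported (17.2%, beside 7.68% of all genes), was 8 with quality weights (27.6%, beside 11%), 2 with sex as a covariate (6.9%, beside 11.1%), 3 in male libraries (10.3%, beside 9.28%), 9 with female Glut1-KO libraries against controls (31%, beside 13.8%) and 4 to 8 when 1 library was left out, with 8 without Glut1-KO replicate 4 (27.6%, beside 7.49%). The members whose groups did not overlap, 2 as reported, were 7 in male libraries (24.1%, beside 17.1% of all genes) and 4 with female Glut1-KO libraries (13.8%, beside 9.51%), which hold fewer libraries. The median log2 fold change of members was -0.18 with the TPM minimum of 20, which leaves 16 members, and 0.14 in male libraries.

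Slc2a1 turned to 0.0613 with sex as a covariate and to 0.0604 in male libraries, Itga2 to 0.11 in each, and Sdc1 to -0.0402 with female Glut1-KO libraries against controls. With sex as a covariate the log2 fold changes of Itgb8 and Lama4 were -0.19 and 0.13. As in male libraries, these rest on the 2 male Glut1-KO libraries against the controls. Lama4 gave 0.53 without Glut1-KO replicate 2, and Itga9 gave 0.24 without control 3. Lama3-Lamb3 reached r = 0.78 with deviations from the group means. Libraries with the same replicate number did not deviate together (r = -0.11 to 0.25), and the fit with the replicate block gave 6 members at an unadjusted p under 0.05 (20.7%, beside 7.26% of all genes), with 0 called and a median log2 fold change of 0.02. Depth limits Itga4, Itgb8, Itgb7, Lamc3 and Itga8, which had 4 to 205 reads per library.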
